A study of Mus musculus with 24 samples.

Results

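The circadian clock genes described here are Clock, Arntl (also called Bmal1), Per2, Per3, Cry1, Cry2, Nr1d1, Nr1d2, Dbp and Ciart, measured by RNA-Seq in the hippocampus of Aged mice. They were taken by gene symbol, 10 of the 49568 symbols in each count file, and all 10 were listed in every library and passed the filter on low counts that left 20187 genes to be tested. Of the 24 libraries, 1 per mouse, 6 came from each of 4 groups, named by genotype (WT or KD, for MSK1 kinase-dead) and housing (SH for standard, EE for the enriched environment): WTSH, WTEE, KDSH and KDEE. All were males of 21 to 23 months on a C57-Bl/6J background, and the enriched groups lived from 18 months of age in rat cages of large size that held toys and a wheel for running. MSK1 KD mice carry, in every cell, a point mutation that inactivates the N-terminal kinase domain of MSK1, a kinase that phosphorylates CREB and histone H3, and they were bred as a homozygous line apart from the WT line, so that line and genotype cannot be told apart. The study left out WTSH-4, WTSH-7 and KDSH-6 for ribosomal RNA in WTSH-4 and WTSH-7 and for low correlation with their groups in all 3, and the 21 libraries kept are used here unless stated (WTSH 4, WTEE 6, KDSH 5, KDEE 6). By mouse number, 1 to 8 were all standard-housed, 9 to 17 all enriched, and 18 to 24 of both housings. What the numbers stand for is not given in the sources used here, and up to 17 number and housing cannot be told apart.

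The mammalian clock is a loop of transcription. CLOCK and BMAL1 (the product of Arntl) bind E-boxes and switch on Per and Cry genes, whose proteins then block that pair, while the nuclear receptors encoded by Nr1d1 and Nr1d2 (REV-ERB alpha and beta) are switched on by the same pair and repress Arntl. Dbp, a transcription factor of the PAR bZIP family, and Ciart, a repressor of the CLOCK and BMAL1 pair also called CHRONO, are direct targets, so Arntl and Dbp peak at nearly opposite times of day in most tissues. Clock genes also cycle in the hippocampus. The colony was kept in a light and dark cycle, but the hour at which each mouse was killed is not given in the sources used here, and its part in any difference between mice was not tested.

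RefSeq promoter windows (GRCm38.p6, 250 bases before to 50 after a start site) were matched for 9 of the 10 genes, in 12 windows; Per2 had no entry. They were searched on both strands for the letters CACGTG (E-box), CACGTT (E-prime box), TTANNTAA (D-box, the site of DBP and its relatives) and TAGGTCA (the core of the RORE, the site of the REV-ERB and ROR receptors). The E-box and the D-box read the same on both strands, and no match overlapped another. Ciart and Cry1 held the E-box, which is in 7.15% of all 32851 windows of 300 bases, and Ciart held it 3 times. Per3 held 2 D-boxes (in 6.003% of windows), Cry1, Cry2 and Nr1d1 an E-prime box (4.69%), and 1 of the 2 windows of Arntl the RORE core (2.61%). Shown are the 250 bases before the start of Ciart, with its E-boxes in capitals (chr3:95882229-95882478, minus strand), the same stretch of Per3 with its D-boxes in capitals (chr4:151044666-151044915, minus strand), and the 30 bases around the RORE core of Arntl, in capitals (chr7:113207529-113207558, plus strand).
Ciart: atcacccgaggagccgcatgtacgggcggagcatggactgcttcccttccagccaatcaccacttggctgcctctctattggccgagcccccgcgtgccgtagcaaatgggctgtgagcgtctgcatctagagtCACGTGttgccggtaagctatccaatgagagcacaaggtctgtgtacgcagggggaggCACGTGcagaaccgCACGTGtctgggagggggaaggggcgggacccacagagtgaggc
Per3: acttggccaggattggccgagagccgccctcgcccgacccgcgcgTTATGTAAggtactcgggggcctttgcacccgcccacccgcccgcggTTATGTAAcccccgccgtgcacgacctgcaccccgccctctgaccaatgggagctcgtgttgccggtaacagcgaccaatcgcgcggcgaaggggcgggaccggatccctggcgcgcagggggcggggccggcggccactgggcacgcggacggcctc
Arntl: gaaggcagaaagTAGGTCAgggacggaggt
These letters describe the windows and are not evidence of binding in these mice.

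The depth of the 21 libraries was 27410239 to 71907130 read pairs counted on genes, and the lowest count of any clock gene in any of them was 260 (Ciart). One kept library, WTEE-10, stood apart: the slope of its log2 CPM (TMM-normalized counts scaled to library size) on log10 exon length was -0.859, against -0.228 to 0.226 in the other 20, and the summed level of 7 hippocampal marker genes was 3895 CPM, against 5653 CPM or more. WTEE-10 was the lowest of the 21 libraries for Clock, Per2, Per3, Cry2 and Nr1d1, so results that rest on it are given also without it. The 3 libraries left out had 16.4 to 33.0% of their read pairs outside genes, against 8.41 to 15.7% in the libraries kept. All 7 hippocampal markers were above 3 counts in every kept library. Rps6ka5, which encodes MSK1, differed between MSK1 KD and WT mice over both housings by 0.09 ± 0.072 (log2 fold change ± SE, edgeR, adjusted p = 1.0), and a point mutation need not alter its count. In this bulk tissue, fewer cells of a type and less RNA per cell cannot be told apart.

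Per kilobase of exon, the nuclear receptor Nr1d1 was the most abundant of the 10 genes and Cry1 the least. On the RPKM scale (CPM per kilobase of exon, mean ± SD, n = 21), Nr1d1 was at 29.2 ± 5.39, Cry2 at 23.1 ± 1.35, Nr1d2 at 15.6 ± 1.45 and Dbp at 11.2 ± 1.61. Clock followed at 6.88 ± 0.762, Per2 at 6.08 ± 1.64, Per3 at 4.87 ± 0.74965, Ciart at 4.29 ± 0.502, Arntl at 4.21 ± 0.450 and Cry1 at 4.15 ± 0.340. From Clock downwards, each gene differed from the next by less than the larger of their SDs, whereas the steps above Clock were larger than the SD of either neighbour. These SDs are between mice, and the order of neighbours within the same libraries was not tested. Reads were counted without regard to strand, and some exons overlap a gene on the other strand: Nr1d1 (chr11:98767932-98775333) shares 263 bases, 8.55% of its exon bases, with Thra, and Dbp (chr7:45705088-45710203) shares 539 bases, 18.0%, with Sphk2. Reads of such pairs cannot be told apart there. Sphk2 differed between housings by -0.03 and Thra by -0.03 (log2), against SEs of 0.060 and 0.050. Across the 21 mice, with group means subtracted, Pearson's r of Nr1d1 with Thra was 0.33 (permutation p = 0.195), and 0.66 without WTEE-10. The part of shared reads in this and in other relations of Nr1d1 was not tested.

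Pooled over the 4 groups, the spread between mice of 1 group was widest for Per2 and Nr1d1. The within-group SD of log2 CPM was 0.30 for Per2, 0.29 for Nr1d1, 0.21 for Dbp, 0.20 for Per3, 0.16 each for Clock, Arntl and Ciart, 0.15 for Nr1d2, 0.11 for Cry1 and 0.09 for Cry2. The median over the 15098 tested genes with a mean of at least 1 CPM was 0.16. Thus Per2 and Nr1d1, at the 85.0th and 84.3rd percentile of those genes, were more variable than most, and Cry2, at the 13.5th, was among the steadier ones. The groups were not alike in this: the SD of Per2 was 2.13 CPM in KDEE mice, against 10.3, 7.38 and 10.1 CPM in WTSH, WTEE and KDSH. This difference in spread was not tested.

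**Figure D1:**
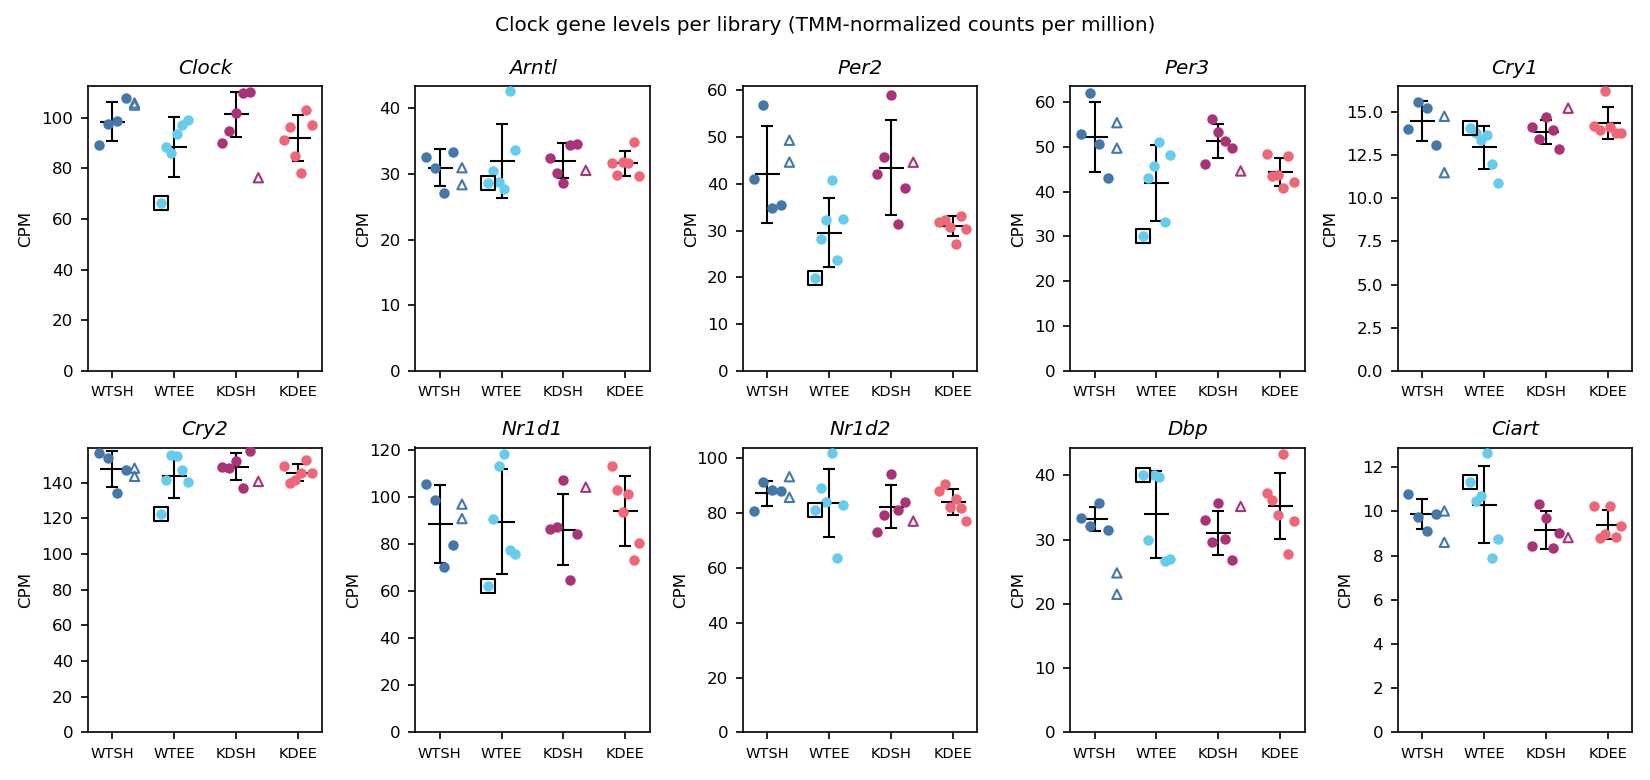
Level of each clock gene in each library, in TMM-normalized CPM on a linear axis from 0, for the 4 groups. Filled circles are the 21 libraries kept, bars are group mean ± SD, the square marks WTEE-10, and open triangles are WTSH-4, WTSH-7 and KDSH-6 on the scaling of all 24 libraries. Per2 was at 31.5 to 59.0 CPM in standard-housed and 19.9 to 40.9 CPM in enriched mice.

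The first comparison asked whether housing altered the clock genes, in WT and in MSK1 KD mice. Per2, which encodes the negative-arm protein that light and many other signals induce directly, was the member with the lowest fold change in enriched mice in both genotypes, and Per3, its paralog, was next. Neither passed the edgeR test over all genes. No member was called in either genotype at an adjusted p under 0.05 with an absolute log2 fold change over 0.38.

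Per2 was at 41.0, 56.8, 34.8 and 35.4 CPM in WTSH-2, WTSH-5, WTSH-19 and WTSH-23. In the 6 WTEE mice it had a lowest level of 19.9, a median of 30.2 and a highest of 40.9 CPM. In the KDSH mice 1, 3, 8, 18 and 24 it was at 42.0, 45.7, 59.0, 31.5 and 39.2 CPM, and in the 6 KDEE mice it lay between 27.1 and 33.1 with a median of 31.3 CPM. The groups overlapped in both genotypes, but 6 of the 12 enriched mice lay below the lowest standard-housed mouse and 5 of the 9 standard-housed mice lay above the highest enriched one. The log2 fold change was -0.51 ± 0.17 (SE) for WTEE against WTSH (edgeR, adjusted p = 0.65) and -0.49 ± 0.16 for KDEE against KDSH (adjusted p = 0.35). Without WTSH-5, the WT mouse with the highest Per2, the value in WT mice was -0.32. Over the omissions of each library in turn it lay between -0.62 and -0.32. Without WTEE-10 the lowest adjusted p of any member for WTEE against WTSH was 0.9995 (edgeR). The difference between the effects in MSK1 KD and WT mice was 0.01 ± 0.24 (adjusted p = 1.0), with a 95% confidence interval of -0.49 to 0.52.

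Averaged over the genotypes, the log2 fold change of Per2 in enriched against standard-housed mice was -0.50 ± 0.12 (edgeR, adjusted p = 0.17), which did not pass the test over 20187 genes. It passed with the Wald test of DESeq2, the study's own tool (-0.50 ± 0.12, adjusted p = 0.026), and with edgeR on all 24 libraries (-0.53 ± 0.11, adjusted p = 0.044). The libraries left out, all standard-housed, had 44.6, 49.3 and 44.6 CPM of Per2 in WTSH-4, WTSH-7 and KDSH-6 on the scaling of all 24, above the highest enriched mouse on that scaling (39.6 CPM). Leaving out any 1 of the 21 libraries gave values from -0.56 to -0.40 and adjusted p from 0.073 to 0.37 (edgeR), and without WTEE-10 the value was -0.45 ± 0.11 (adjusted p = 0.098). By mouse number, Per2 was at 41.0 to 59.0 CPM in the kept mice up to 8 and 19.9 to 40.9 CPM in 9 to 17. In 18 to 24 it was at 31.5, 34.8, 35.4 and 39.2 CPM in KDSH-18, WTSH-19, WTSH-23 and KDSH-24. There the enriched KDEE-20, WTEE-21 and KDEE-22 had 33.1, 32.5 and 30.4 CPM. The part of mouse number in the housing difference was not tested.

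Other measures moved with housing as well. The slope of log2 CPM on exon length ran from 0.0169 to 0.226 in the 9 standard-housed mice and from -0.859 to 0.0976 in the 12 enriched mice, and with it as a covariate Per2 was at -0.32 ± 0.11 (edgeR, adjusted p = 0.52). All 5 blood markers were higher in enriched mice at an unadjusted p under 0.05, with a sum of 54.7 to 383 CPM against 36.1 to 75.1 CPM, and their part in the result was not tested. In the same direction were 8 of 10 choroid plexus markers at that threshold, which 18.9% of all genes passed in either direction. The 10 summed to 228 to 13103 CPM in enriched and 192 to 6045 CPM in standard-housed mice. By genotype, 10 were higher at that threshold in MSK1 KD mice (median log2 fold change 4.01) and 0 in WT mice (0.46). The shares of all genes there were 11.6% and 6.55%. Few libraries carried the high sums: KDEE-12 (13103 CPM) and KDEE-14 (3602 CPM), against 319 to 352 CPM in the other KDEE mice. KDSH mice were at 192 to 296 CPM. In WT mice, WTSH-19 (6045 CPM), WTEE-10 (6414 CPM) and WTEE-13 (8030 CPM) were high, and the others lay between 196 and 314 CPM. With Ttr, the leading transcript of choroid plexus, as a covariate the value of Per2 was -0.44 ± 0.13 (edgeR, adjusted p = 0.75). The sums over markers of neighbouring regions overlapped between the housings, but Avp of the hypothalamus list (1.09 ± 0.40, edgeR, adjusted p = 0.22) and Lhx9 of the thalamus list (-0.19 ± 0.085, adjusted p = 0.25) had an unadjusted p under 0.05, and their part in the result was not tested. The 6 hypothalamus markers summed to 13.8 to 19.9 CPM in standard-housed and 12.9 to 28.2 CPM in enriched mice, the 5 thalamus markers to 68.2 to 93.1 and 66.1 to 100 CPM, and the 6 pituitary markers to 1.80 to 238 and 2.05 to 27.2 CPM, with 2 of the 6 above 3 counts in every kept library. The 7 hippocampal markers summed to 5880 to 7158 and 3895 to 6758 CPM.

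Per3 was at 52.8, 62.0, 50.7 and 43.1 CPM in WTSH-2, WTSH-5, WTSH-19 and WTSH-23. In WTEE mice it had a lowest level of 30.2, a median of 44.3 and a highest of 51.2 CPM. In KDSH mice 1, 3, 8, 18 and 24 it was at 46.1, 56.1, 53.4, 51.4 and 49.8 CPM, against 40.7 to 48.5 CPM with a median of 43.5 in KDEE mice. The groups overlapped, with 5 of the 12 enriched mice below the lowest standard-housed one. The log2 fold change was -0.31 ± 0.12 in WT mice (edgeR, adjusted p = 0.65), -0.21 ± 0.11 in MSK1 KD mice (adjusted p = 0.46) and -0.26 ± 0.083 over both (adjusted p = 0.20). With the length slope as a covariate the last became -0.14 ± 0.073 (edgeR, adjusted p = 0.68), and without WTEE-10 it was -0.22 ± 0.070 (adjusted p = 0.12). Over the omissions of each library in turn, the value in WT mice lay between -0.40 and -0.22. Of the libraries left out, WTSH-4 and WTSH-7 (55.4 and 49.7 CPM) lay above the highest enriched mouse and KDSH-6 (44.6 CPM) did not.

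Clock, the E-box binding partner of BMAL1, was at 89.2, 97.5, 98.9 and 108 CPM in WTSH-2, WTSH-5, WTSH-19 and WTSH-23, and at 89.9, 94.995, 102, 110 and 110 CPM in KDSH-1, KDSH-3, KDSH-8, KDSH-18 and KDSH-24. In WTEE mice its lowest, median and highest levels were 66.3, 91.0 and 99.2 CPM, and in KDEE mice 78.2, 93.8 and 103 CPM. The housings overlapped, with 5 of the 12 enriched mice below the lowest standard-housed one and 3 of the 9 standard-housed mice above the highest enriched one, and the lowest value was that of WTEE-10. The housing difference of -0.15 ± 0.066 (log2, edgeR, adjusted p = 0.25) was -0.03 ± 0.047 with the length slope as a covariate, a change of more than 1.5 times. Over the omissions of each library in turn, the housing difference of Clock lay between -0.17 and -0.11 (edgeR). Without WTEE-10 its unadjusted p was not under 0.05. Clock has the longest exons of the members (13.7 kb).

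Averaged over the genotypes, the other 7 genes showed smaller housing differences, but within a genotype Cry1 in WT mice (-0.16) and Dbp in MSK1 KD mice (0.18) were as far from 0 as Clock (-0.15 and -0.14). Arntl was at 32.6, 30.9, 27.0 and 33.3 CPM in WTSH-2, WTSH-5, WTSH-19 and WTSH-23, and at 32.4, 30.2, 28.6, 34.4 and 34.6 CPM in KDSH-1, KDSH-3, KDSH-8, KDSH-18 and KDSH-24. In WTEE mice it had a lowest level of 27.7, a median of 29.6 and a highest of 42.6 CPM, and in KDEE mice 29.7, 31.7 and 34.8 CPM. Its 4 groups overlapped, and 1 mouse, WTEE-17, was far above the rest. Dbp was at 33.4, 32.2, 35.7 and 31.5 CPM in the same WTSH mice and at 33.1, 29.6, 35.7, 30.03 and 26.8 CPM in the same KDSH mice. In WTEE mice it had a lowest level of 26.7, a median of 34.9 and a highest of 40.1 CPM, and in KDEE mice 27.8, 34.9 and 43.3 CPM. The enriched mice thus spread more widely in Dbp than the standard-housed mice, a difference in spread that was not tested. On the scaling of all 24 libraries, Dbp was at 21.5 and 24.8 CPM in WTSH-4 and WTSH-7, which were left out, and at 35.2 CPM in KDSH-6. Over both genotypes the log2 fold changes of the 7 lay between -0.05 (Cry1) and 0.11 (Dbp), with SEs of 0.042 to 0.12 and no adjusted p under 0.48 (edgeR). Arntl was at 31.6 ± 2.59 CPM in standard-housed (SD, n = 9) and 31.8 ± 3.996 CPM in enriched mice (n = 12). Cry2 was at 148 ± 8.14 and 145 ± 8.81 CPM, Nr1d1 at 87.2 ± 14.7 and 91.8 ± 18.2 CPM, and Nr1d2 at 84.5 ± 6.60 and 83.9 ± 8.97 CPM. These differences were smaller than 1 SD. The same held for Dbp at 32.0 ± 2.89 and 34.6 ± 5.74 CPM, Ciart at 9.48 ± 0.822 and 9.85 ± 1.34 CPM, and Cry1 at 14.1 ± 0.924 and 13.7 ± 1.28 CPM.

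Over all genes, the housing comparison called 1 of 20187 genes (0.00495%) by edgeR, and that gene was Ighm. At an unadjusted p under 0.05 it held 18.9% of genes and 3 of the 10 clock genes (Per2, Per3 and Clock, of which Clock was not held without WTEE-10). The Wald test of DESeq2 called 0.233% of genes, with Per2 as the only member, and held 19.9% of genes and 3 members at an unadjusted p under 0.05. Shares called by DESeq2 are over the genes with an adjusted p, 17608 here and 16167 to 37779 over the comparisons. On 24 libraries edgeR called 0.0757%, again with Per2 alone among the members. In WT mice alone (WTEE against WTSH), edgeR called 0% of genes and 0 members, with 6.55% of genes and 2 members at an unadjusted p under 0.05, and DESeq2 called 0.00529% of genes and 0 members, with 7.03% of genes and 3 members at an unadjusted p under 0.05 (shares at an unadjusted p from DESeq2 are over 20184 of the 20187 genes). In MSK1 KD mice alone (KDEE against KDSH), edgeR called 0% and 0 members, with 11.6% of genes and 1 member at an unadjusted p under 0.05, and DESeq2 called 0.0866% and 0 members, with 12.3% of genes and 1 member at an unadjusted p under 0.05. The groups of no member were free of overlap, against 0.986% of genes in WT and 1.84% in MSK1 KD mice. The counts of 1 to 3 members at the unadjusted threshold stand against 6.55 to 18.9% of all genes by edgeR and 7.03 to 19.9% by DESeq2.

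The second comparison asked whether the clock genes differed between MSK1 KD and WT mice. They did not pass the test in either housing. For KDSH against WTSH edgeR called 0% of genes and 0 members, with 1% of genes and 0 members at an unadjusted p under 0.05, and DESeq2 called 0% and 0 members, with 1.03% of genes and 0 members at an unadjusted p under 0.05. The members' log2 fold changes lay between -0.11 (Ciart) and 0.05 (Per2), with SEs of 0.064 to 0.18. For KDEE against WTEE edgeR called 0% and 0 members, with 4.99% of genes and 1 member at an unadjusted p under 0.05, and DESeq2 called 0.438% of genes and 0 members, with 5.01% of genes and 1 member at an unadjusted p under 0.05. Averaged over both housings edgeR called 0% and 0 members, with 1.9% of genes and 0 members at an unadjusted p under 0.05, and DESeq2 called 0% and 0 members, with 1.91% of genes and 0 members at an unadjusted p under 0.05.

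The member with the unadjusted p under 0.05 in enriched mice was Cry1, which encodes the cryptochrome that holds CLOCK and BMAL1 in check at the end of the cycle. Cry1 had a lowest level of 10.9, a median of 13.5 and a highest of 14.05 CPM in WTEE mice, and of 13.8, 14.1 and 16.2 CPM in KDEE mice. The groups overlapped, and the difference was 0.15 ± 0.069 (log2, edgeR, adjusted p = 0.96). With the share of read pairs outside genes as a covariate it was 0.06 ± 0.070, a change of more than 1.5 times. In standard-housed mice Cry1 was at 14.02, 15.6, 15.2 and 13.1 CPM in WTSH and at 14.1, 13.5, 14.7, 13.97 and 12.9 CPM in KDSH mice, which overlapped throughout. No member passed the test of a difference between the enrichment effects of MSK1 KD and WT mice: edgeR called 0% of genes and 0 members, with 3.26% of genes and 0 members at an unadjusted p under 0.05, and DESeq2 called 0.0762% and 0 members, with 3.35% of genes and 1 member (Cry1) at an unadjusted p under 0.05.

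**Figure D2:**
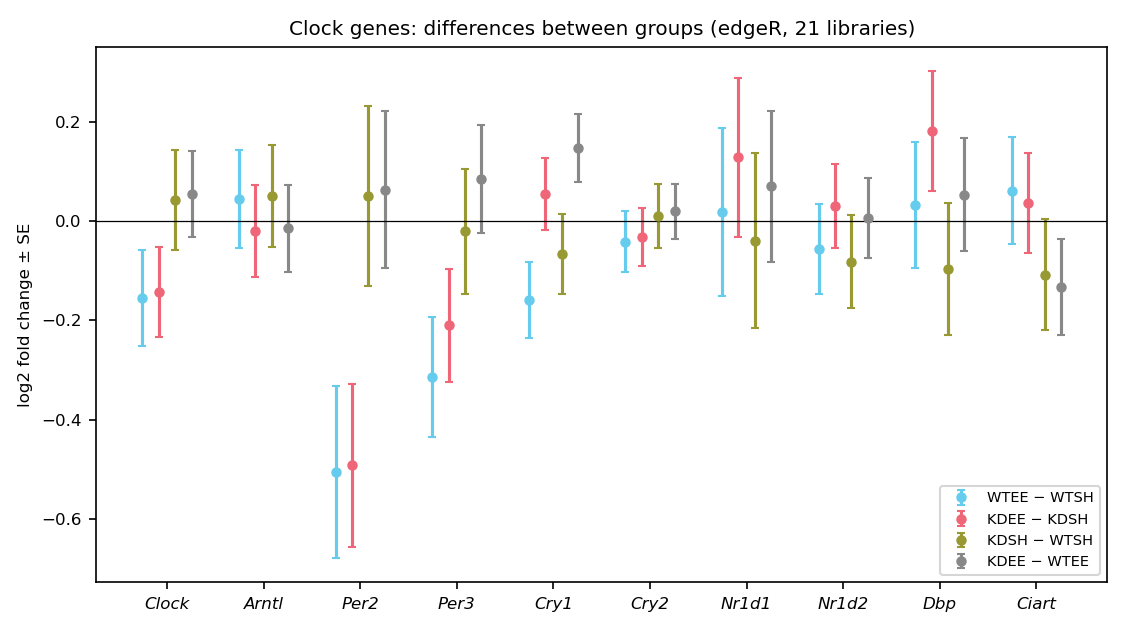
Log2 fold change of each clock gene (points) with its SE (bars) in 4 comparisons between groups, from the edgeR fit on 21 libraries. Per2 lay at -0.51 in WT and -0.49 in MSK1 KD mice, the lowest of the 10 genes in both, and no member passed an adjusted p of 0.05.

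A list of 19 further clock genes was tested in full, and edgeR called 0 of them in each of the 7 comparisons. Over both genotypes, 2 were higher and 4 lower in enriched mice at an unadjusted p under 0.05, against 18.9% of all genes, and the median log2 fold change of the list was -0.04, against 0.01 for all genes. Among the repressors Per1 was at -0.19 ± 0.11 (adjusted p = 0.31) and Bhlhe40, which encodes the E-box repressor DEC1, at -0.14 ± 0.062 (adjusted p = 0.25). Usp2, which encodes a deubiquitinating enzyme, was at 0.20 ± 0.059 (adjusted p = 0.19). Arntl2, the paralog of Arntl, was at -0.22 ± 0.10 (adjusted p = 0.26). Csnk1d, a kinase of the PER proteins, was at -0.09 ± 0.041 and Btrc, a subunit of the ligase that degrades them, at -0.09 ± 0.033 (adjusted p = 0.24 and 0.23). In MSK1 KD mice alone 2 of the 19 were higher and 2 lower at that threshold, against 11.6% of all genes, and in WT mice alone 0 were, against 6.55%. The difference between the genotypes was not tested for the list. Of 7 temperature-responsive genes, edgeR called 0 over both genotypes, and Cirbp, which encodes a cold-inducible RNA-binding protein, was the 1 with an unadjusted p under 0.05 (0.20, adjusted p = 0.23).

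The third question was whether the clock genes varied together from mouse to mouse within groups. Group means were subtracted from log2 CPM, and each of the 45 pairs of members was tested over 21 mice with 100000 two-sided permutations within groups. The members and this question were chosen with earlier results known, so the p values are not independent evidence. The permutations took no account of mouse number. In every group, Clock was higher in mice 18 to 24 than in any lower-numbered kept mouse (110 and 110 against 89.9 to 102 CPM in KDSH). Nr1d1 was lower there in WTSH, KDSH and KDEE (73.1 and 80.4 against 93.5 to 113 CPM), but WTEE-21 (76.0 CPM) was above WTEE-10 (62.1). The part of mouse number in the correlations was not tested. Of the 45 correlations 31 were positive and 14 negative, and 5 passed an adjusted p of 0.05 over the pairs by Pearson's r (3 positive, 2 negative) and 3 by Spearman's rho, all 3 among the 5.

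Arntl and Dbp, the activator and its output, went in opposite directions. In WTEE mice, WTEE-17 had the highest Arntl of all 21 mice (42.6 CPM) and the lowest Dbp (26.7 CPM), WTEE-16 had 27.7 CPM of Arntl and 39.7 CPM of Dbp, and WTEE-13 had 28.8 and 40.1 CPM. In KDEE mice, KDEE-20 had the highest Arntl of its group (34.8 CPM) and the lowest Dbp (27.8 CPM). The genes lay on opposite sides of their group means in 13 of 21 mice. Pearson's r was -0.71 (permutation p = 0.00037, adjusted p = 0.0083) and Spearman's rho -0.68 (permutation p = 0.0020, adjusted p = 0.038). Without WTEE-17 and WTSH-19, the libraries farthest from the median of Arntl, r was -0.69. Within the groups of 6, r was -0.82 in WTEE and -0.46 in KDEE mice. Arntl rose and Dbp fell with the share of read pairs outside genes (r = 0.64 and -0.53 over 21 mice, permutation p = 0.0014 and 0.0047, adjusted p = 0.022 and 0.046 over 60 such relations, rho = 0.72 and -0.57, adjusted p = 0.022 and 0.075), and with that share regressed out r between them was -0.56 (permutation p = 0.0094, adjusted p = 0.070).

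Per2 and Per3 rose and fell together. WTSH-5 was the highest of its group in both (56.8 and 62.0 CPM), WTEE-16 the highest of WTEE (40.9 and 51.2 CPM), and WTEE-10 and WTEE-17 were the lowest of WTEE in both (19.9 and 30.2 CPM, 23.7 and 33.2 CPM). Pearson's r was 0.80 (permutation p = 0.00023, adjusted p = 0.0083) and rho 0.82 (permutation p = 0.00011, adjusted p = 0.0050). It was 0.83 without WTSH-5 and KDSH-8, the libraries farthest from the median of Per2, 0.97 within WTEE and 0.78 within KDEE mice. Per2 and Per3 each rose with the length slope of a library (r = 0.62 and 0.65, permutation p = 0.00093 and 0.0054, adjusted p = 0.022 and 0.046 over 60 such relations, rho = 0.56 and 0.58, adjusted p = 0.028 and 0.070). Without WTEE-10 these r were 0.51 and 0.37. With the length slope regressed out r of Per2 and Per3 was 0.66 (permutation p = 0.012, adjusted p = 0.053).

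Per2 also varied with Nr1d1 (r = 0.72, permutation p = 0.0014, adjusted p = 0.021, rho = 0.66, permutation p = 0.0055, adjusted p = 0.062), and Cry2 with Nr1d1 (r = 0.70, permutation p = 0.0019, adjusted p = 0.021, rho = 0.60, permutation p = 0.013, adjusted p = 0.081). WTEE-10 was the lowest of all 21 mice in all 3 genes, and without it r was 0.64 (adjusted p = 0.056) and 0.60 (adjusted p = 0.077). Neither passed the adjustment without WTEE-16 (0.66 for both, adjusted p = 0.063) or without KDSH-18 (0.67 and 0.66, adjusted p = 0.076 and 0.087), nor did the first without KDSH-8 (0.68, adjusted p = 0.052) and the second without WTEE-13 (0.66, adjusted p = 0.069). Without the pair of libraries farthest from the median of the first gene, r was 0.69 and 0.53. Within KDEE mice alone both were negative, at -0.24 and -0.38.

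Clock and Dbp were opposed (r = -0.64, permutation p = 0.0042, adjusted p = 0.038, rho = -0.68, permutation p = 0.0025, adjusted p = 0.038). Without WTEE-10 and KDEE-15, the libraries farthest from the median of Clock, r was -0.49, and without WTEE-10 alone it was -0.59 (adjusted p = 0.056). The relation lost its call in 11 of the 21 omissions of 1 library (WTSH-23, WTEE-10, WTEE-11, WTEE-17, WTEE-21, KDSH-18, KDSH-24, KDEE-9, KDEE-15, KDEE-20 and KDEE-22), with r between -0.73 and -0.58 over all 21. Clock rose with the length slope of a library (r = 0.80 over 21 mice, permutation p = 0.0013, adjusted p = 0.022 over 60 such relations, rho = 0.66, permutation p = 0.0021, adjusted p = 0.028, r = 0.64 without WTEE-10), and with that slope regressed out r of Clock and Dbp was -0.52. Clock also fell with log2 CPM of Thra (r = -0.80, permutation p = 1e-05, adjusted p = 0.0006 over the same 60 relations, rho = -0.85). The other pair of direct activators, Clock and Arntl, had r = 0.38 (permutation p = 0.20, rho = 0.43), which did not pass.

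Arntl was also low where the REV-ERB beta gene Nr1d2 and Ciart were high, with r of -0.68 and -0.66 (permutation p = 0.015 and 0.014, adjusted p = 0.076 for both, rho = -0.47 and -0.50), but these did not pass the adjustment. Nr1d2 also fell with the share of read pairs outside genes (r = -0.57, permutation p = 0.0027, adjusted p = 0.033 over 60 such relations, rho = -0.63, adjusted p = 0.042). For Ciart this r was -0.32 (permutation p = 0.17, adjusted p = 0.44). WTEE-17 had the highest Arntl and the lowest Nr1d2 (63.7 CPM) and Ciart (7.87 CPM) of the 21 mice. Without WTEE-17, r of Arntl was -0.36 with Nr1d2 and -0.40 with Ciart. Without WTEE-17 and WTSH-19, the libraries farthest from the median of Arntl, these were -0.38 and -0.62. Dbp and Ciart, with r = 0.65 (permutation p = 0.011, adjusted p = 0.067, rho = 0.48), were at 0.56 without WTEE-17.

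**Figure D3:**
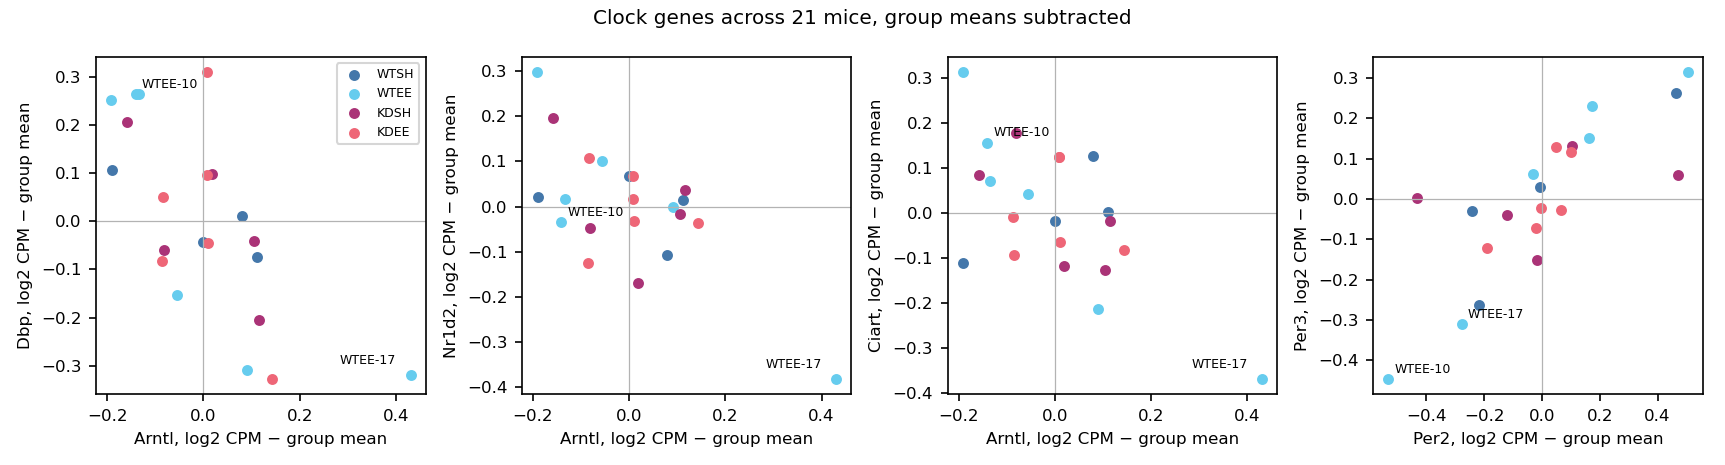
Log2 CPM minus the group mean of 4 pairs of clock genes, with 1 point per mouse for 21 mice coloured by group, and WTEE-10 and WTEE-17 named. Arntl against Dbp had r = -0.71, Arntl against Nr1d2 -0.68, Arntl against Ciart -0.66 and Per2 against Per3 0.80, and WTEE-17 lay far from the rest in Arntl.

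Single libraries mattered as well: the number of pairs past the adjusted threshold was 2 without WTEE-16 or without KDSH-18, and 4 to 7 without any other 1 of the 21. The value for Arntl and Dbp without WTEE-16 was -0.67 (adjusted p = 0.051), the only such omission that lost its call. Leaving out WTEE-10 and WTEE-17 together, an alternative chosen after the data were seen, left 0 of 45 pairs past the adjusted threshold. The values without both were -0.66 for Arntl and Dbp (permutation p = 0.0025, adjusted p = 0.057), 0.67 for Per2 and Per3, 0.60 for Per2 and Nr1d1, 0.62 for Cry2 and Nr1d1 and -0.59 for Clock and Dbp, each with the sign it had over 21 mice. Arntl then kept a negative r with Per2, Per3, Cry1, Nr1d1, Nr1d2, Dbp and Ciart, from -0.14 (Per3) to -0.66 (Dbp). Within KDEE mice alone r of Arntl was positive with Per2 (0.22), Per3 (0.59) and Cry1 (0.02). It was negative there with Nr1d1, Nr1d2, Dbp and Ciart, from -0.04 (Ciart) to -0.46 (Dbp).

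**Figure D4:**
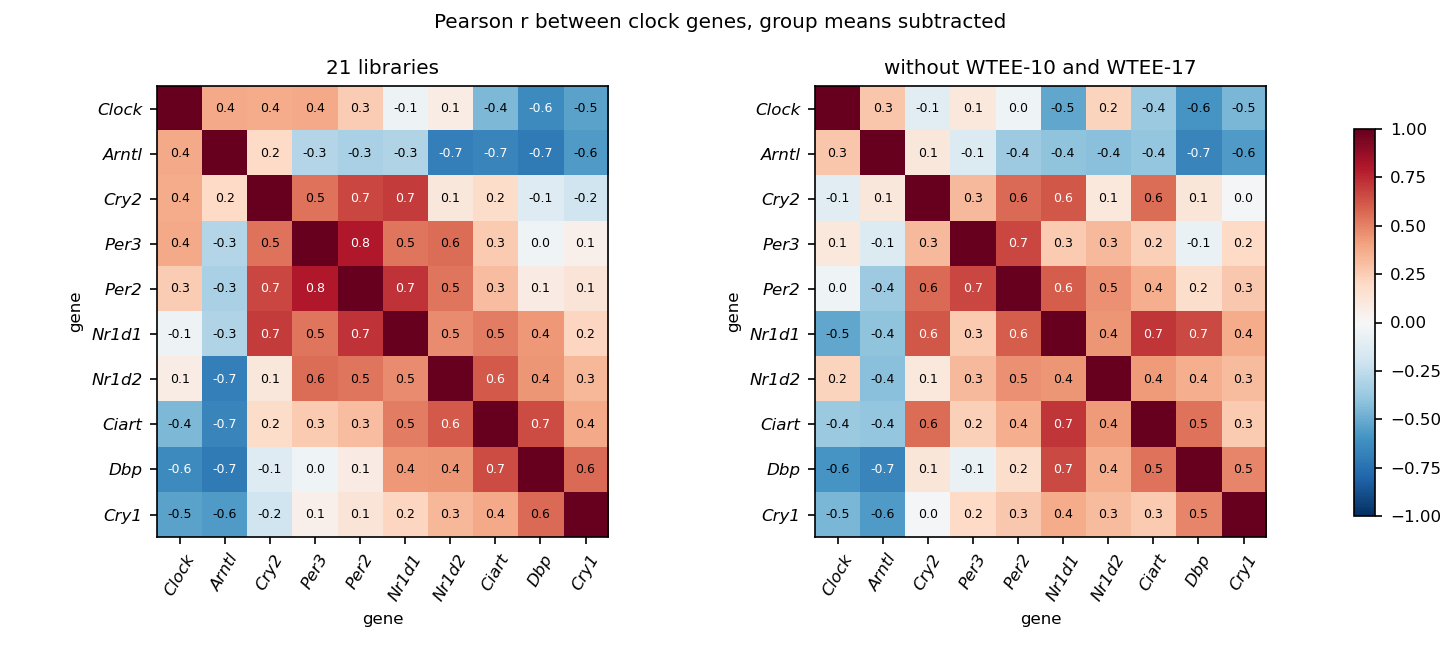
Pearson's r between the 10 clock genes over mice, group means subtracted, on a colour scale from -1 (blue) to 1 (red), for 21 libraries (left) and without WTEE-10 and WTEE-17 (right). Arntl was negative with Dbp in both, at -0.71 and -0.66, and with Nr1d2 at -0.68 and -0.42.

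Against other genes, Dbp stood near the end of the scale for Arntl. Among 15097 other genes with a mean of at least 1 CPM, Dbp had the 16th lowest r with Arntl, Nr1d2 the 27th and Ciart the 45th, and 147 genes (0.974%) were below -0.6. Without WTEE-10 and WTEE-17 these ranks were 114th, 1934th and 2327th. As a description over 21 libraries, the genes outside the members that were most opposed to Arntl were Plagl1 (r = -0.79), Meig1 (-0.78), Id4 (-0.77), Bcl2 (-0.75), Bhlhe41 (-0.74), Igfbp3 (-0.74), Nr2f2 (-0.73) and Osbpl2 (-0.73). Bhlhe41 encodes the clock repressor DEC2, and r was -0.63 without WTEE-10 and WTEE-17. The most alike were Adgrf4 (0.82), Gm8098 (0.80), 9530059O14Rik (0.78), Car7 (0.76), Ahrr (0.74), Epha7 (0.74), Spag6 (0.73) and Alkbh3 (0.73).

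For Dbp the scale had longer ends, with 618 genes (4.09%) below -0.6 and 574 (3.80%) above 0.6, so that values past 0.6 were more common than for Arntl. The genes most like Dbp were Vcp (r = 0.83), Lfng (0.81), Pdlim1 (0.80), Crip2 (0.78), Bhlhe41 (0.78), Tnfaip1 (0.78), Rhoa (0.78) and Cacng4 (0.77), and the most opposed were Grin2a (-0.88), Ttc13 (-0.83), 2900005J15Rik (-0.80), Acvr1c (-0.80), Gm15513 (-0.80), 4833412K13Rik (-0.79), Eml5 (-0.79) and Epha6 (-0.78). Grin2a encodes an NMDA receptor subunit, and its r was -0.86 without WTEE-10 and WTEE-17. Bhlhe41 was thus the 1 of these genes named for both, on opposite sides. Clock and Arntl themselves had the 370th and 97th lowest r with Dbp.

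Of the 19 further clock genes, 5 stood close to Per2, here as a description over 21 mice and chosen after their values were seen. Each point is a mouse, and all genes share the library and its depth. With Per2, r was 0.81 for Per1, 0.75 for Tef, 0.74 for Bhlhe40, 0.68 for Csnk1d and 0.63 for Hlf, and without WTEE-10 and WTEE-17 these ran from 0.59 (Hlf) to 0.82 (Tef). Tef and Hlf encode the PAR bZIP relatives of DBP. With Dbp the same 5 genes had r of 0.03 (Per1) to 0.47 (Hlf), while Usp2 had 0.55 and Arntl2 -0.65. With Arntl, Tef was at -0.61 and Arntl2 at 0.57, and Npas2, a paralog of Clock, at 0.08. How common such r with Per2 was among all genes was not tested, so closeness to Per2 is not shown to be particular to clock genes. Among the temperature-responsive genes, r with Per2 was -0.78 for Cirbp and 0.63 for Hspa1b, and -0.65 and 0.73 without WTEE-10 and WTEE-17. The rest of that list ran from -0.23 (Rbm3) to 0.47 (Dnajb1) over 21 mice, and from -0.35 to 0.72 without those libraries.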

How the data were processed

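RNA-Seq libraries were made from poly(A) RNA of the hippocampus, 1 per mouse, from Aged males in 4 groups of genotype and housing. The deposited files hold counts of read pairs per gene symbol, which the authors made with Skewer (trimming), FastQC 0.11.3, STAR 2.5 (alignment to GRCm38) and HTSeq 0.6.1p1 (uniquely aligned, unstranded). Rows that name no gene were left out of library sizes and tests; read pairs outside genes made up 8.41 to 15.7% and ambiguous ones 4.14 to 6.57% in the 21 libraries kept. The members and gene lists were chosen with earlier results of these data known. No pair of libraries was identical (highest r 0.992).

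TMM scaling and quasi-likelihood tests came from edgeR 4.0.16 (R 4.3.3), in a model of 4 group means, with filterByExpr, Benjamini-Hochberg adjustment over 20187 genes, and calls at an adjusted p under 0.05 with an absolute log2 fold change over 0.38. DESeq2 1.42.0, the study's tool, served as an alternative. Log2 CPM used a prior count of 2. Exon lengths and loci came from GENCODE on GRCm38, not the annotation release used for counting, and 96.4% of tested genes matched. Correlations used numpy 2.4.6 and scipy 1.17.1 on log2 CPM minus group means, with permutations of mice within groups. The code for the tests was tested on simulated data with known changes. Named were the 10 members, list genes, and the 8 genes with the highest and the 8 with the lowest r with Arntl and with Dbp among genes of at least 1 CPM; fold changes were named for Per2, Per3 and Clock (housing) and Cry1, a choice made after their values were seen. The alternatives were DESeq2, RLE scaling, other filters, a robust fit, only the groups compared, all 24 libraries, covariates, and leaving out each library. Adding the exon length slope or the share of pairs outside genes, and leaving out WTEE-10 with WTEE-17, were chosen after seeing the data. Nothing says that mice of a group came from different litters or days. The values of 1 gene of the list of further clock genes are not reported here.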

Additional observations from a re-analysis of the deposited data

Results flagged for a closer look

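Cry1 in KDEE-14 was at 16.2 CPM, the highest of the 6 KDEE mice, against 14.2 CPM in the nearest of the others. The gap was 0.835 of the range of the group, above Dixon's 95% critical value of 0.625 for 6 samples. It was the 1 such case among 40 sets of member and group, where chance gives about 1 in 20. Over the omissions of each library in turn, the difference of Cry1 between KDEE and WTEE lay between 0.10 and 0.17 (log2).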

How the results depend on the processing

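No paired analysis was possible because no mouse number occurs in more than 1 group. The number of members called stayed at 0 in each comparison under each alternative run, leaving out each library included (range 0 to 0), with 2 exceptions: over both genotypes enriched against standard housing called 1 member (Per2) with DESeq2 and 1 (Per2) with all 24 libraries. No named fold change turned its direction under any alternative. Among the pairs of members, 5 passed the adjusted threshold, against 10 with group means not subtracted, 8 with all 24 libraries, 3 by Spearman's rho, 0 without WTEE-10 and WTEE-17 together, 2 in WTEE alone, 0 in KDEE alone, and 2 to 7 without 1 library. The r of Arntl and Dbp was -0.56 with the share of pairs outside genes regressed out, -0.66 without WTEE-10 and WTEE-17, -0.82 in WTEE alone and -0.46 in KDEE alone, none of which passed the adjusted threshold, and lay between -0.77 and -0.66 without 1 library. The groups of 6 hold fewer mice, and the cause of the other changes was not tested. In KDEE alone r was -0.24 for Per2 and Nr1d1 and -0.38 for Cry2 and Nr1d1, opposite in sign to the values over 21 mice. The depth gave at least 260 read pairs for each member in each kept library.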
